A study of Mus musculus with 31 samples.

Results

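The collagen genes of the lactating mouse mammary gland were taken as all protein-coding genes whose mouse symbol has the form of a numbered collagen alpha chain. Of 44 such symbols among the 55379 genes counted, 42 had at least 10 reads over the 31 libraries, and Col24a1 and Col6a5 fell short with 7 and 5 reads. The 42 were 10 fibrillar collagens, 6 chains of type IV and 26 minor collagens, and 31 of them had enough reads to be tested between groups. The libraries came from the mammary glands of C57BL/6 dams (C57BL/6J in the study's methods) at day 10 of lactation, with 1 library per dam. Dams ate a breeder diet with 4 mg folic acid (FA) per kg or an FA-supplemented diet with 24 mg per kg from 2 weeks before mating. They were injected daily into the peritoneum with saline or with 20 mg fluoxetine hydrochloride per kg of body weight, from embryonic day 13 to day 10 of lactation. Every dam therefore received injections, and the control diet also held folic acid. The groups were breeder diet + saline (8 dams), breeder diet + fluoxetine (7), FA diet + saline (8) and FA diet + fluoxetine (8), and the comparisons asked whether the drug, the supplement or their combination went with a change in the transcripts of the gland. The study's methods give other sizes for the fluoxetine groups, and the groups used here follow the sample labels. Fluoxetine is an inhibitor of serotonin reuptake, and folic acid supplies one-carbon units for nucleotide synthesis and methylation.

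Collagens are secreted as trimers of alpha chains wound around each other. Types I, III and V assemble into the fibrils that give the stroma its strength, and type IV forms the sheet-like network of the basement membrane on which the milk-secreting and myoepithelial cells sit and which also surrounds fat cells and small vessels. The minor collagens decorate fibrils, form beaded filaments of type VI, anchor the basement membrane to the stroma (type VII), or span the membrane of basal epithelial cells (type XVII). At peak lactation the secretory epithelium fills most of the gland.

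Collagen genes together took 0.0135 to 0.0481% of the reads in 30 libraries and 0.383% in the remaining library, dam 3 of the FA diet + fluoxetine group, labelled FF3. Library totals ran from 15412542 to 36000439 reads. The 20 genes with the most reads over all libraries together included milk protein genes. They held 60.5 to 81.0% of the reads in the other 30 libraries against 39.3% in dam FF3. Levels are given as CPM, reads of a gene scaled to a common library size with the trimmed mean of M-values, and 3 levels in a row are the lowest, median and highest dam of a group. The scaling factor was 0.716 to 1.57 in the other libraries and 3.04 in dam FF3. Fewer cells of a type and less RNA per cell cannot be told apart in RNA of the whole gland.

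Col1a1, Col3a1 and Col4a1, the markers named for the stromal label, had reads in all 31 libraries with lowest values of 7.63, 17.7 and 12.8 CPM. They belong to the collagen genes themselves, so their detection is no independent check of that label. Cartilage, another collagen-rich tissue, left little trace: its 6 markers summed to 0 to 1.21 CPM, and the type II chain Col2a1 had 15 reads in all. Skeletal muscle markers, in contrast, summed to between 0.887 and 5943 CPM in the other 30 libraries and 3.11 CPM in dam FF3, where 4 of the 7 were at 0. Col9a1 and Col7a1 did not follow Col1a1 across dams (values are given with the correlations), so the genes are called the collagen genes rather than a stromal program.

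Dam FF3 stood apart before any comparison of groups. It had the highest level of 23 of the 31 tested collagen genes, and 23 were at least 3 times the median of the other 30 dams. The share of all tested genes that were highest in dam FF3, or at least 3 times the median, was not counted. These counts are therefore not read as particular to the collagen genes. All collagen together summed to 1268 CPM in dam FF3 and to between 140.7 and 473.2 CPM in the others. The excess was greatest among the most read chains for type I, with Col1a1 at 7.90 times and Col1a2 at 7.69 times the median of the others, and reached 8.13 times for Col16a1. It was smaller for type IV, with Col4a1 at 3.94 and Col4a2 at 3.10 times. The 8 genes not highest in dam FF3 included Col9a1 (0.72 times the median of the others), Col17a1 (0.91 times) and Col11a2 (0.66 times). Each group comparison of the collagen genes is therefore given with and without this dam, which was singled out by its collagen levels among other measures.

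**Figure D1:**
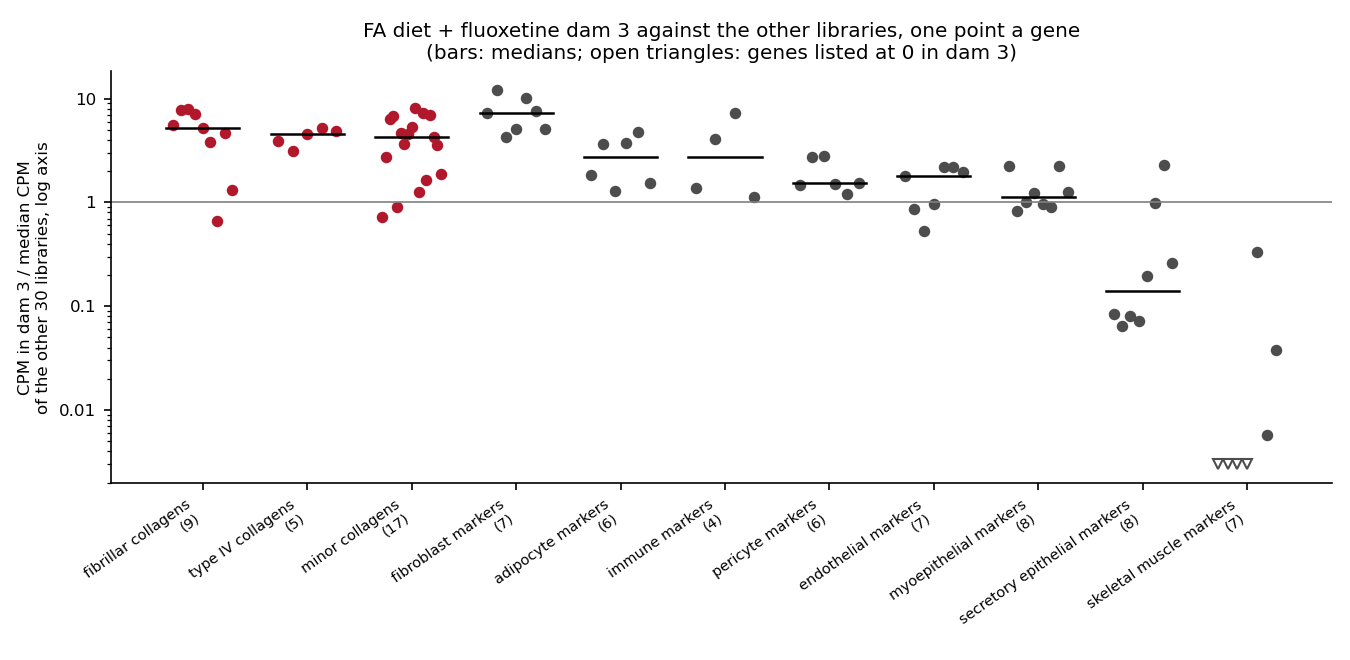
Level of each tested gene in dam 3 of FA diet + fluoxetine (FF3) divided by the median of the other 30 dams, on a log axis, by class and beside the tested genes of 8 marker lists. Points are genes, bars are medians and open triangles are genes at 0 in that dam. Col1a1 lies at 7.90 and Col16a1 at 8.13, whereas Col9a1 (0.72), Col17a1 (0.91) and Col11a2 (0.66) lie below 1.

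Markers of other cell types moved in that dam as well. Its 7 fibroblast markers summed to 189.9 CPM against 12.8 to 56.2 CPM in the other dams, and each of the 7 was 4.25 to 12.1 times the median of the others. Adipocyte markers (6 genes) summed to 860 CPM against 151 to 412 CPM, and immune markers (5 genes) to 24.3 CPM against 3.76 to 10.8 CPM. Both sums lay above every other dam. Fabp4 alone gave 675 of the 860 CPM, and Adipoq, Lep and Retn of adipocytes and Ptprc and Cd79a of immune cells lay inside the range of the other dams. Secretory epithelial markers (8 genes) summed to 42360 CPM against 235900 to 730500 CPM, with the milk protein genes Csn2 and Wap at 0.083 and 0.072 times the median of the others. That sum is almost wholly milk protein genes: Krt18, a keratin of the luminal epithelium on the same list, was at 149 CPM, 2.30 times the median of the others and the highest of all dams, and Krt8 was at 0.98 times. Pericyte markers (6 genes) summed to 65.5 CPM against 30.8 to 58.8. Endothelial markers (7 genes, 53.1 CPM against 28 to 70.4) and myoepithelial markers (8 genes, 474.6 CPM against 231 to 638) stayed inside the range of the other dams. The part of these cell types in the collagen values of dam FF3 was not tested.

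Col3a1, Col1a2 and Col4a1, the 3 most read collagen genes, held 42.6% of all collagen reads. The fibrillar class summed to lowest, median and highest values of 80.3, 120.7 and 183.9 CPM in breeder diet + saline and 49.5, 114.3 and 165.9 CPM in breeder diet + fluoxetine. It summed to 107.7, 131.1 and 280.5 CPM in FA diet + saline and 54.4, 100.1 and 119.8 CPM in FA diet + fluoxetine without dam FF3, which had 753 CPM. The 4 groups overlapped. Fibrillar chains made up 31.5 to 59.3% of the collagen reads of the other dams and 59.4% of those of dam FF3.

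**Figure D2:**
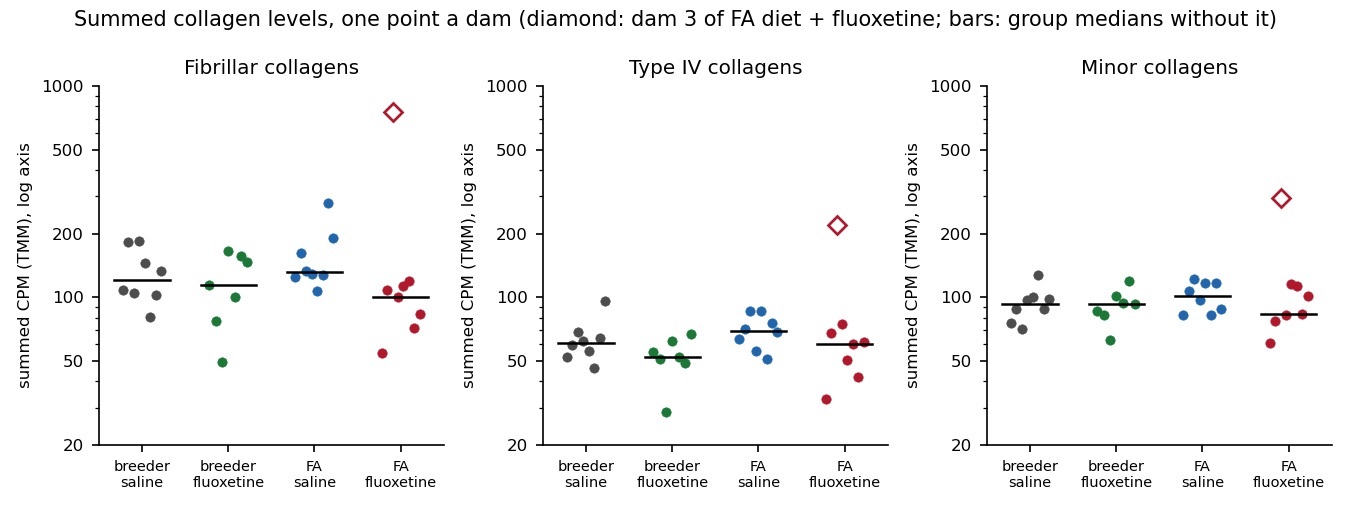
Summed level in CPM, on a log axis, of the fibrillar, type IV and minor collagen genes in every dam, by diet and drug group, with a diamond for dam 3 of FA diet + fluoxetine and bars for group medians without it. The groups overlap in each class, and the marked dam lies at 753, 219 and 295 CPM, above every other dam.

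The start regions of 4 genes are shown because these genes behaved differently across dams. The levels of Col1a1 and Col3a1 varied together, whereas the correlation with Col1a1 without dam FF3 was -0.126 for Col9a1 and 0.30 for Col17a1. Each line gives the 250 bases before the annotated start in GRCm39 (GENCODE mouse release 39 and the genome of that build), on the strand of the gene. Capitals mark matches to 3 motifs on either strand. These were CCAAT, which the factor NF-Y is known to bind, the motif GGGCGG, which Sp1 is known to bind, and the motif TATAAA, the TATA box near which transcription starts, and the marked matches did not overlap each other.
Col1a1, chr11:94826800-94827049, + strand: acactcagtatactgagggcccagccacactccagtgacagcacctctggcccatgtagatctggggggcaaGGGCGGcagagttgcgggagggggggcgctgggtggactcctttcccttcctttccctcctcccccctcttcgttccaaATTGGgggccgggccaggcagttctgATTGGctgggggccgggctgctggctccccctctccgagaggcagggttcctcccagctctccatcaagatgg
Col3a1, chr1:45350448-45350697, + strand: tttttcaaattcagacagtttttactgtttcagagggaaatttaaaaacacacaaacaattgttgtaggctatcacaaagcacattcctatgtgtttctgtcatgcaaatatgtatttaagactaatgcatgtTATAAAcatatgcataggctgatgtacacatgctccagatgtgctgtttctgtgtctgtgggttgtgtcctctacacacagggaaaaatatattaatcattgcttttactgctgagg
Col9a1, chr1:24216441-24216690, + strand: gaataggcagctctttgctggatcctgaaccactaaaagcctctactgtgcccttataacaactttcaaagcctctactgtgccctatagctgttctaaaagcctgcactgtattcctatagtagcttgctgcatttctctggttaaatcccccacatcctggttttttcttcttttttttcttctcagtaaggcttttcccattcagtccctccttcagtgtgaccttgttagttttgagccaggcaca
Col17a1, chr19:47680534-47680783, - strand: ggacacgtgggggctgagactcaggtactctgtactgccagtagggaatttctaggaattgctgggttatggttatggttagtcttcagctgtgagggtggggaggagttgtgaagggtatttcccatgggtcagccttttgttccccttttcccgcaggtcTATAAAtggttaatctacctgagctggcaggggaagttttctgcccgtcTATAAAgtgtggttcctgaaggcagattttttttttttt
The Col1a1 window had 2 CCAAT, 1 GGGCGG and a GC content of 64.8%. The Col3a1 window had no CCAAT or GGGCGG, 1 TATAAA and a GC content of 35.2%. Col9a1 had none of the motifs (GC 43.6%), and Col17a1 had 2 TATAAA (GC 47.6%). The median GC content of 21757 mouse promoters of the same length was 53.2%. Over the 42 collagen genes 15 held CCAAT against 36.47% of all promoters, 20 held GGGCGG against 36.34%, and 7 held TATAAA against 11.92%. A match is no evidence that a factor binds there.

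Col3a1 (ENSMUSG00000026043, chr1:45350698-45395840, + strand), the chain of type III collagen, had the most reads of any collagen gene. Its lowest, median and highest levels were 31.5, 49.9 and 82 CPM in breeder diet + saline, 37.9, 56.3 and 127 in FA diet + saline, 17.7, 48.6 and 70.2 in breeder diet + fluoxetine and 22.4, 37.9 and 50.9 in the other 7 dams of FA diet + fluoxetine, with 279.5 in dam FF3. The lowest dam of the study was dam 6 of breeder diet + fluoxetine, and the highest after dam FF3 was dam 11 of FA diet + saline.

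Type I collagen, the main fibril of the stroma, is made of the chains of Col1a1 (ENSMUSG00000001506, chr11:94827050-94843868, + strand) and Col1a2 (ENSMUSG00000029661, chr6:4504814-4541555, + strand). Col1a1 had lowest, median and highest levels of 13.2, 25.1 and 38.3 CPM in breeder diet + saline, 20.8, 25.4 and 57.5 in FA diet + saline, 7.63, 18.1 and 34 in breeder diet + fluoxetine and 9.48, 14.6 and 21.2 in the other 7 dams of FA diet + fluoxetine, with 167 in dam FF3. For Col1a2 the same levels were 18.8, 29.5 and 48.8 CPM in breeder diet + saline, 27, 33.2 and 63.7 in FA diet + saline, 11.6, 27.4 and 42.6 in breeder diet + fluoxetine and 13.2, 22.7 and 27.6 in the other 7 dams of FA diet + fluoxetine, with 217 in dam FF3. The same dams lay at the extremes as for Col3a1, and the 4 groups overlapped for both chains.

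Type V chains are built into type I fibrils and limit their width. Col5a1 (ENSMUSG00000026837, chr2:27776397-27929526, + strand) had levels of 4.18, 5.24 and 6.4 CPM in breeder diet + saline, 3.12, 5.31 and 12.6 in FA diet + saline, 1.42, 4.56 and 6.67 in breeder diet + fluoxetine and 1.39, 3.38 and 5.51 in the other 7 dams of FA diet + fluoxetine, with 25.4 in dam FF3. Col5a3 (ENSMUSG00000004098, chr9:20681337-20726418, - strand), a chain of the same type, had levels of 2.11, 4.3 and 10.0 CPM in breeder diet + saline, 1.71, 4.12 and 5.68 in FA diet + saline, 1.83, 4.5 and 11.5 in breeder diet + fluoxetine and 1.89, 3.93 and 8.34 in the other 7 dams of FA diet + fluoxetine, with 16.2 in dam FF3. Groups overlapped for both. Apart from dam FF3, the highest dam was dam 11 of FA diet + saline for Col5a1 and dam 9 of breeder diet + fluoxetine for Col5a3.

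The other fibrillar genes were low. Col11a2 (ENSMUSG00000024330, chr17:34258108-34285664, + strand), a type XI chain better known from cartilage, had levels of 0.805, 2.18 and 4.64 CPM in breeder diet + saline, 0.83, 2.09 and 3.0 in FA diet + saline, 2.05, 2.98 and 6.52 in breeder diet + fluoxetine and 0.745, 3.08 and 7.3 in the other 7 dams of FA diet + fluoxetine, with 1.77 in dam FF3. Col27a1 (ENSMUSG00000045672, chr4:63132241-63253228, + strand), a fibrillar collagen of cartilage and other tissues, had levels of 0.999, 1.57 and 4.64 CPM in breeder diet + saline, 0.449, 1.12 and 3.08 in FA diet + saline, 0.912, 2.13 and 7.26 in breeder diet + fluoxetine and 0.78, 2.48 and 3.97 in the other 7 dams of FA diet + fluoxetine, with 7.59 in dam FF3. Col11a1 (ENSMUSG00000027966, chr3:113824134-114014367, + strand), another type XI chain, had levels of 0.044, 0.29 and 0.644 CPM in breeder diet + saline, 0.20, 0.627 and 1.29 in FA diet + saline, 0.0857, 0.296 and 0.342 in breeder diet + fluoxetine and 0, 0.523 and 0.997 in the other 7 dams of FA diet + fluoxetine, with 0.454 in dam FF3. The fluoxetine dams had the higher medians for Col11a2 and Col27a1 in both diets, while for Col11a1 the FA diet did under both treatments. Col5a2 averaged 5.28 CPM without dam FF3, Col2a1 had too few reads to be tested, and Col24a1 was left out.

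**Figure D3:**
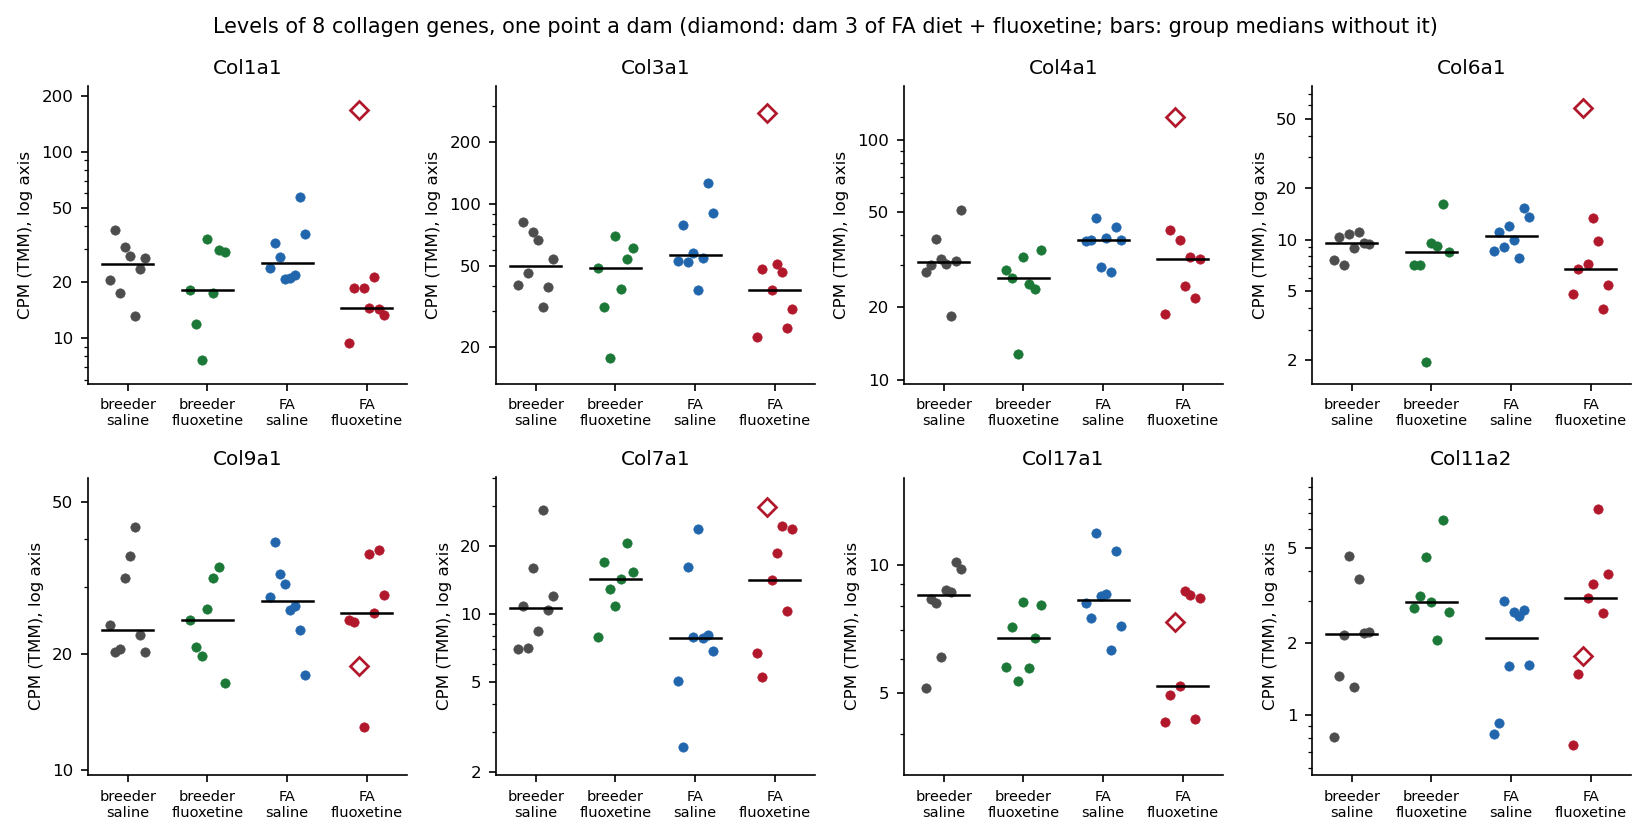
Level in CPM, on a log axis, of 8 named collagen genes in every dam, by diet and drug group, with a point for each dam, a diamond for dam FF3 and bars for group medians without it. Col1a1, Col3a1 and Col4a1 of dam 3 of FA diet + fluoxetine lie at 166.8, 279.5 and 124.5 CPM, above all other dams, whereas its Col9a1 (18.6 CPM) and Col17a1 (7.34 CPM) lie among them.

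The basement membrane chains summed to lowest, median and highest values of 46.2, 60.6 and 95.7 CPM in breeder diet + saline and 28.6, 52.0 and 67.0 CPM in breeder diet + fluoxetine. Sums on the FA diet were 50.8, 69.4 and 86.5 CPM with saline and 33, 60.3 and 75 CPM with fluoxetine without dam FF3, which had 219 CPM. Col4a1 and Col4a2, the chains of the common type IV network, carried most of this. They lie head to head on chromosome 8 with 316 bases between their start sites and 311 shared exon bases, and since the strand setting of the counting was not given, reads from the shared bases cannot be assigned to either chain with certainty.

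Col4a1 (ENSMUSG00000031502, chr8:11248423-11362826, - strand) had levels of 18.5, 30.9 and 50.8 CPM in breeder diet + saline, 28.2, 38.4 and 47.1 in FA diet + saline, 12.8, 26.7 and 34.8 in breeder diet + fluoxetine and 18.8, 31.9 and 42 in the other 7 dams of FA diet + fluoxetine, with 125 in dam FF3. Col4a2 (ENSMUSG00000031503, chr8:11362471-11499287, + strand) had levels of 15.9, 20.8 and 35.4 CPM in breeder diet + saline, 17.2, 23.9 and 37.9 in FA diet + saline, 9.11, 19.5 and 23.9 in breeder diet + fluoxetine and 11.9, 20.0 and 31.2 in the other 7 dams of FA diet + fluoxetine, with 63.3 in dam FF3. Dam 6 of breeder diet + fluoxetine was the lowest of all for both chains, dam 12 of breeder diet + saline was the highest of its group for Col4a2, and the groups overlapped. The remaining chains, found in basement membranes of fewer tissues, were lower: Col4a5 and Col4a6 averaged 3.96 and 2.54 CPM without dam FF3, Col4a4 averaged 0.424 CPM, and Col4a3 had 175 reads in all and was not tested.

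Minor collagens summed to 71.0, 92.8 and 128.2 CPM in breeder diet + saline and 62.6, 93.0 and 119.0 CPM in breeder diet + fluoxetine, as lowest, median and highest. They summed to 82.1, 101.7 and 121.4 CPM in FA diet + saline and 61.0, 83.8 and 115.9 CPM in FA diet + fluoxetine without dam FF3, which had 295 CPM. The class was led by Col9a1. This gene, which codes for a fibril-associated chain best known from cartilage, held second place among all collagen genes per kilobase of exon.

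Col9a1 (ENSMUSG00000026147, chr1:24216691-24291765, + strand) had levels of 20.3, 23.2 and 42.9 CPM in breeder diet + saline, 17.7, 27.5 and 39.2 in FA diet + saline, 16.9, 24.6 and 33.7 in breeder diet + fluoxetine and 12.9, 25.7 and 37.4 in the other 7 dams of FA diet + fluoxetine, with 18.6 in dam FF3. The groups overlapped almost entirely, and dam FF3 lay low within its group. Its partner chains in type IX collagen were far lower, with a median ratio of Col9a1 to Col9a2 of 24.3 per kilobase of exon over the 30 libraries with Col9a2 reads and of Col9a1 to Col9a3 of 21.8 over 31 libraries.

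Col6a1 (ENSMUSG00000001119, chr10:76543440-76562283, - strand), a chain of the beaded filaments around stromal cells, had levels of 7.1, 9.5 and 11.1 CPM in breeder diet + saline, 7.8, 10.5 and 15.3 in FA diet + saline, 1.95, 8.46 and 16 in breeder diet + fluoxetine and 3.93, 6.76 and 13.2 in the other 7 dams of FA diet + fluoxetine, with 57.4 in dam FF3. Col6a3 (ENSMUSG00000048126, chr1:90693645-90771780, - strand), the longest chain of the same filament, had levels of 3.39, 5.55 and 8.86 CPM in breeder diet + saline, 6.06, 8.62 and 12.5 in FA diet + saline, 3.25, 5.19 and 8.14 in breeder diet + fluoxetine and 3.41, 4.68 and 8.26 in the other 7 dams of FA diet + fluoxetine, with 21.7 in dam FF3. Dam 6 of breeder diet + fluoxetine was the lowest of all for Col6a1, and the highest values for Col6a3 outside dam FF3 were in FA diet + saline. Col6a4 (ENSMUSG00000032572, chr9:105866653-105973990, - strand), a low chain of the family, had levels of 0.0555, 0.319 and 0.969 CPM in breeder diet + saline, 0, 0.275 and 1.29 in FA diet + saline, 0.244, 0.71 and 1.49 in breeder diet + fluoxetine and 0.301, 0.699 and 1.74 in the other 7 dams of FA diet + fluoxetine, with 1.7 in dam FF3.

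Col7a1 (ENSMUSG00000025650, chr9:108782647-108813943, + strand), which forms the fibrils that anchor basement membranes, had levels of 7.0, 10.6 and 28.9 CPM in breeder diet + saline, 2.59, 7.87 and 23.7 in FA diet + saline, 7.93, 14.3 and 20.6 in breeder diet + fluoxetine and 5.29, 14.2 and 24.5 in the other 7 dams of FA diet + fluoxetine, with 29.7 in dam FF3. Col17a1 (ENSMUSG00000025064, chr19:47634783-47680533, - strand), a membrane-spanning collagen of the hemidesmosomes of basal epithelial cells, had levels of 5.13, 8.47 and 10.1 CPM in breeder diet + saline, 6.3, 8.27 and 11.9 in FA diet + saline, 5.32, 6.72 and 8.16 in breeder diet + fluoxetine and 4.27, 5.18 and 8.67 in the other 7 dams of FA diet + fluoxetine, with 7.34 in dam FF3. Col17a1 varied least of the 31 tested collagen genes in the fit with all dams. Its biological coefficient of variation there was 0.24, against a median of 0.52 over the tested collagen genes and 0.32 over all genes tested. That fit includes dam FF3, which was high for most collagen genes but not for Col17a1. Standard errors of the fluoxetine change were 0.12 for Col17a1, 0.20 for Col4a1 and 0.27 for Col6a2 with all dams. Without dam FF3 they were closer together, at 0.12, 0.13 and 0.13. Col7a1 had high dams in every group, the highest apart from dam FF3 being dam 10 of breeder diet + saline.

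Col15a1 (ENSMUSG00000028339, chr4:47207582-47313179, + strand), a collagen of the zone below basement membranes, had levels of 3.25, 5.45 and 8.5 CPM in breeder diet + saline, 4.32, 7.09 and 10.7 in FA diet + saline, 2.66, 7.12 and 9.57 in breeder diet + fluoxetine and 3.77, 5.3 and 9.8 in the other 7 dams of FA diet + fluoxetine, with 26.8 in dam FF3. Col16a1 (ENSMUSG00000040690, chr4:129941154-129993076, + strand), a fibril-associated collagen, had levels of 1.44, 2.36 and 5.5 CPM in breeder diet + saline, 1.78, 2.2 and 3.54 in FA diet + saline, 2.25, 2.48 and 4.57 in breeder diet + fluoxetine and 1.65, 2.81 and 4.35 in the other 7 dams of FA diet + fluoxetine, with 20.0 in dam FF3. Col14a1 (ENSMUSG00000022371, chr15:55171140-55384199, + strand), another fibril-associated collagen, had levels of 2.5, 2.78 and 4.83 CPM in breeder diet + saline, 3.08, 3.69 and 6.62 in FA diet + saline, 1.37, 3.08 and 5.67 in breeder diet + fluoxetine and 1.49, 2.88 and 4.68 in the other 7 dams of FA diet + fluoxetine, with 16.6 in dam FF3. None of these separated the groups.

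Of the other tested minor collagens, Col6a2, Col18a1, Col20a1, Col9a3, Col12a1, Col9a2, Col6a6 and Col28a1 averaged from 8.09 CPM for Col6a2 down to 0.365 CPM for Col28a1 without dam FF3. The 11 genes too low to test had 10 to 250 reads in all, from Col10a1 to Col8a1. In addition to Col2a1 and Col4a3 they were Col8a1, Col8a2, Col10a1, Col13a1, Col19a1, Col22a1, Col23a1, Col25a1 and Col26a1. Some reads may belong to overlapping neighbours: Col18a1 shared 12.7% of its exon bases with Slc19a1 (the reduced folate carrier), Col9a3 shared 11.8% with Tcfl5, and Col1a2 shared 10.3% with a long noncoding RNA.

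Per kilobase of exon the order of mean levels was Col3a1 (5.80 CPM per kb), Col9a1 (5.25), Col4a1 (4.67), Col1a1 (4.24), Col4a2 (3.19) and Col1a2 (2.84), and these 6 held 66.5% of all collagen reads. Order depended on the length used: with the length of the canonical transcript, Col3a1 (10.7 CPM per kb) was followed by Col9a1 (6.95), Col1a2 (6.69), Col4a1 (5.27) and Col1a1 (4.70). The median ratio of Col1a1 to Col1a2 was 1.48 with all exons and 0.694 with canonical transcripts, so no order between these chains is given. Col4a1 stood above Col4a2 with either length (median ratios of 1.41 and 1.49), and the lowest library had 0.985 with all exons. Values of neighbours in this order overlapped across libraries.

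Fluoxetine was not associated with any collagen gene at a false discovery rate (FDR) of 10% in the edgeR quasi-likelihood test, adjusted over all 14362 genes tested and averaged over both diets. Over all genes 0.0209% passed (3 genes). The smallest FDR among the collagen genes was 0.394. Before adjustment, 5 of 31 collagen genes had p at or under 0.05, against 9.92% of all genes. Of these, 4 were higher with fluoxetine (background 6.94%) and 1 was lower (background 2.98%). The median log2 fold change of the collagen genes was 0.057 (18 above 0, 13 below) against 0.019 over all genes tested, so the class as a whole lay close to all genes. The fibrillar median was 0.057, that of type IV was -0.00070 and that of the minor collagens was 0.16.

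The 5 were mostly low genes. Their log2 fold changes, with standard error and p adjusted over all genes in edgeR, were 0.81 (SE 0.31, adjusted p = 0.416) for Col27a1, 1.13 (SE 0.44, adjusted p = 0.417) for Col6a4, 0.61 (SE 0.26, adjusted p = 0.458) for Col11a2 and 0.63 (SE 0.27, adjusted p = 0.461) for Col16a1. For Col17a1 it was -0.34 (SE 0.12, adjusted p = 0.394). Without dam FF3, 12 of 14 fluoxetine dams were below the saline median for Col17a1 (6.5 ± 1.62 CPM, SD, against 8.34 ± 1.74 CPM in 16 saline dams). In the same dams Col16a1 was below the saline median in 2 of 14, Col27a1 in 2, Col6a4 in 1 and Col11a2 in 3. The type I and type III chains had log2 fold changes of -0.011 (SE 0.33, adjusted p = 0.995) for Col1a1, 0.057 (SE 0.31, adjusted p = 0.97) for Col1a2 and -0.13 (SE 0.29, adjusted p = 0.916) for Col3a1, with standard errors larger than the changes.

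Leaving out dam FF3 turned the balance. Again no collagen gene passed an FDR of 10% (0.0211% of 14247 genes did, 3 genes), and the smallest FDR was 0.387. The median log2 fold change for fluoxetine became -0.31 with 11 genes above 0 and 20 below, against -0.0071 over all genes. It was -0.42 for the 9 fibrillar genes tested, -0.33 for the 5 of type IV and -0.10 for the 17 minor collagens. An unadjusted p of 0.05 or below was reached by 13 of 31 collagen genes against 9.21% of all genes. Of the 13, 10 were lower with fluoxetine (background 3.99%) and 3 were higher (background 5.22%). Dam FF3 is a fluoxetine dam singled out by high collagen levels, so a downward move of the fold changes follows from leaving it out. Many collagen genes also varied together across dams (r = 0.92 for Col1a1 with Col1a2 without dam FF3). The 13 are therefore not independent results, and the share of all genes is no test of their number.

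The lower genes were headed by the stromal fibrils. Log2 fold changes without dam FF3 were -0.60 (SE 0.19, adjusted p = 0.387) for Col1a1, -0.51 (SE 0.16, adjusted p = 0.387) for Col1a2 and -0.57 (SE 0.19, adjusted p = 0.388) for Col3a1. Col1a1 was 18.4 ± 7.76 CPM (SD, n = 14) in fluoxetine dams and 27.5 ± 10.4 CPM (SD, n = 16) in saline dams, with 11 of 14 below the saline median. Col3a1 was 41.6 ± 15.2 against 61.6 ± 24.4 CPM, with 12 of 14 below. The ranges overlapped in each case, and none of these genes passed the adjustment over all genes.

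Beyond the fibrils, Col4a1 had -0.33 (SE 0.13, adjusted p = 0.464) without dam FF3, at 28.1 ± 7.82 against 35.1 ± 8.13 CPM, and 12 of 14 fluoxetine dams lay below the saline median. Col17a1 had -0.37 (SE 0.12, adjusted p = 0.391), close to its value with all dams. The others below 0 with p of 0.05 or less were Col5a1 at -0.53 (SE 0.20, adjusted p = 0.455), Col6a3 at -0.43 (SE 0.15, adjusted p = 0.414), and Col4a5, Col6a1 and Col6a2 at -0.33, -0.37 and -0.31. Higher were Col11a2 (0.64), Col6a4 (1.04) and Col27a1 (0.63). Col16a1, which had an unadjusted p under 0.05 with all dams, had 0.21 (SE 0.18, adjusted p = 0.736), and Col7a1 had 0.37 (SE 0.27, adjusted p = 0.695), with 3 of 14 fluoxetine dams below the saline median. DESeq2 with all dams gave Col1a2 a log2 fold change of -0.47, but it had replaced the Col1a2 count of dam FF3 as an outlier (12435 reads by 1636), so that value rests on an imputed count.

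The FA diet, averaged over saline and fluoxetine, gave no collagen gene at an FDR of 10%, with a background of 0% (0 of 14362 genes in edgeR, of which 729 or 5.08% had an unadjusted p of 0.05 or below). Of the 31 collagen genes, 4 had such a p, all higher on the FA diet (background 2.95%), and the smallest FDR was 0.933. The median log2 fold change was 0.37 (24 above 0, 7 below) against 0.017 over all genes. The 4 genes were Col11a1 at 1.02 (SE 0.38, adjusted p = 0.933), Col4a1 at 0.44 (SE 0.20, adjusted p = 0.933), Col6a3 at 0.44 (SE 0.21, adjusted p = 0.933) and Col14a1 at 0.54 (SE 0.26, adjusted p = 0.933). Dam FF3 lies on the FA side of this comparison.

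Without that dam the median was -0.00013, with 15 genes above 0 and 16 below (all genes -0.0052). Only Col11a1 kept an unadjusted p of 0.05 or below, at 1.02 (SE 0.38, adjusted p = 0.583), against a background of 6.99% of genes in either direction and 3.64% higher. Col4a1 became 0.19 (SE 0.13, adjusted p = 0.805), Col6a3 became 0.19 (SE 0.15, adjusted p = 0.844) and Col14a1 became 0.19 (SE 0.18, adjusted p = 0.878). No gene of the 14247 (0%) passed the FDR of 10% in edgeR. Col11a1 itself rested on few reads, 321 over all libraries.

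For the interaction, the change with fluoxetine on the FA diet minus that on the breeder diet, no collagen gene had an FDR of 10% or an unadjusted p of 0.05 or below with all dams (0% and 3.84% of all genes). Its smallest p was 0.0664, and the median was 0.44 with 26 above 0 and 5 below. Without dam FF3 the median was -0.11 (13 above, 18 below), and 2 of 31 genes had a p of 0.05 or below against 3.48% of all genes in either direction and 1.85% below 0 (0% at the FDR). These were Col6a2 at -0.61 (SE 0.27, adjusted p = 0.997) and Col15a1 at -0.71 (SE 0.35, adjusted p = 0.997). The drug effect on a collagen gene was thus not found to differ between diets in either set of dams.

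The balance among chains was followed as ratios within a library, which do not depend on the scaling between libraries. The log2 ratio of Col3a1 to Col1a1 reads was 1.16 with fluoxetine and 1.15 with saline, a difference of 0.011 (SE 0.088, adjusted p = 0.901, two-sided permutation test within diet, adjusted over 4 ratio tests). Between diets it differed by 0.030 (permutation test, adjusted p = 0.901). For Col4a1 to Col1a1 the differences were 0.19 (SE 0.18) for fluoxetine and 0.16 (SE 0.18) for FA, both with an adjusted permutation p = 0.765. Without dam FF3 they were 0.27 (SE 0.16) and 0.24 (SE 0.16), both with an adjusted permutation p = 0.303. Dam FF3 had the lowest value of its group for each ratio, 0.74 and -0.42.

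Across dams, after the group means were removed, the fibril chains varied together. These are correlations of log2 CPM over libraries, with p from two-sided permutation tests within groups, adjusted over 14 pairs, and the 2 libraries farthest from the median of the first gene were dam FF3 and dam 6 of breeder diet + fluoxetine. Col1a1 with Col1a2 had r = 0.97 (adjusted p = 3.5e-05) and rho = 0.89 (adjusted p = 4.67e-05) over 31 libraries, r = 0.90 without the 2 farthest libraries and r = 0.92 without dam FF3 (adjusted p = 4.67e-05). Col1a1 with Col3a1 had r = 0.96 (adjusted p = 3.5e-05) and rho = 0.89 (adjusted p = 4.67e-05) over 31 libraries, r = 0.88 without the 2 farthest libraries and r = 0.91 without dam FF3 (adjusted p = 4.67e-05). The smallest p the permutations can give is 1e-05 before adjustment, and both pairs reached it. Col1a1 with Col5a1 had r = 0.87 (adjusted p = 3.5e-05) and rho = 0.69 (adjusted p = 0.00028) over 31 libraries, r = 0.66 without the 2 farthest libraries and r = 0.74 without dam FF3 (adjusted p = 7e-05). Within the basement membrane, Col4a1 with Col4a2 had r = 0.92 (adjusted p = 3.5e-05) and rho = 0.83 (adjusted p = 4.67e-05) over 31 libraries, r = 0.82 without the 2 farthest libraries and r = 0.87 without dam FF3 (adjusted p = 4.67e-05).

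Col1a1 was also set beside chains of other classes. Col1a1 with Col6a1 had r = 0.84 (adjusted p = 0.00014) and rho = 0.64 (adjusted p = 0.00082) over 31 libraries, r = 0.50 without the 2 farthest libraries and r = 0.65 without dam FF3 (adjusted p = 0.000793). Col1a1 with Col15a1 had r = 0.80 (adjusted p = 0.000228) and rho = 0.65 (adjusted p = 0.000607) over 31 libraries, r = 0.53 without the 2 farthest libraries and r = 0.64 without dam FF3 (adjusted p = 0.00135). Col1a1 with Col4a1 had r = 0.83 (adjusted p = 0.00018) and rho = 0.59 (adjusted p = 0.00203) over 31 libraries, r = 0.51 without the 2 farthest libraries and r = 0.64 without dam FF3 (adjusted p = 0.000793). Among 29 further pairs of Col1a1 added after seeing the data, with p-values adjusted over those pairs, Col6a2 had r = 0.90 (adjusted p = 0.000145) and rho = 0.76 (adjusted p = 0.000435) over 31 libraries, r = 0.69 without the 2 farthest libraries and r = 0.75 without dam FF3 (adjusted p = 0.000677). All 4 lost part of their size without the extreme dams but stayed above 0.

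Single genes of other cells and of collagen folding were set beside Col1a1. With Serpinh1, the collagen chaperone HSP47, Col1a1 had r = 0.80 (adjusted p = 8.4e-05) and rho = 0.64 (adjusted p = 0.000607) over 31 libraries, r = 0.50 without the 2 farthest libraries and r = 0.59 without dam FF3 (adjusted p = 0.00135). With Pdgfra, a fibroblast receptor, it had r = 0.80 (adjusted p = 0.00042) and rho = 0.57 (adjusted p = 0.00328) over 31 libraries, r = 0.48 without the 2 farthest libraries and r = 0.55 without dam FF3 (adjusted p = 0.00541). Both kept an adjusted p under 0.05 without dam FF3. With Adipoq of adipocytes it had r = 0.52 (adjusted p = 0.00526) and rho = 0.50 (adjusted p = 0.0103) over 31 libraries, r = 0.32 without the 2 farthest libraries and r = 0.48 without dam FF3 (adjusted p = 0.0327). With Pecam1 of endothelium it had r = 0.33 (adjusted p = 0.161) and rho = 0.12 (adjusted p = 0.538) over 31 libraries, r = 0.044 without the 2 farthest libraries and r = 0.075 without dam FF3 (adjusted p = 0.752). For Pecam1 no relation was detected. With Krt14 of myoepithelium it had r = 0.15 (adjusted p = 0.484) and rho = 0.21 (adjusted p = 0.305) over 31 libraries, r = 0.21 without the 2 farthest libraries and r = 0.28 without dam FF3 (adjusted p = 0.163). With Acta1 of skeletal muscle it had r = -0.18 (adjusted p = 0.503) and rho = -0.12 (adjusted p = 0.538) over 31 libraries, r = -0.15 without the 2 farthest libraries and r = 0.057 without dam FF3 (adjusted p = 0.789). With the milk protein gene Csn2 it had r = -0.72 (adjusted p = 0.0394) and rho = -0.37 (adjusted p = 0.077) over 31 libraries, r = -0.099 without the 2 farthest libraries and r = -0.18 without dam FF3 (adjusted p = 0.57), so that relation rests on the extreme dams. Of the 29 further pairs, Krt8 of luminal epithelium had r = 0.39 (adjusted p = 0.0299) and rho = 0.48 (adjusted p = 0.0273) over 31 libraries, r = 0.64 without the 2 farthest libraries and r = 0.56 without dam FF3 (adjusted p = 0.0127), and Epcam of epithelium had r = -0.67 (adjusted p = 0.00422) and rho = -0.45 (adjusted p = 0.0411) over 31 libraries, r = -0.34 without the 2 farthest libraries and r = -0.43 without dam FF3 (adjusted p = 0.072).

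**Figure D4:**
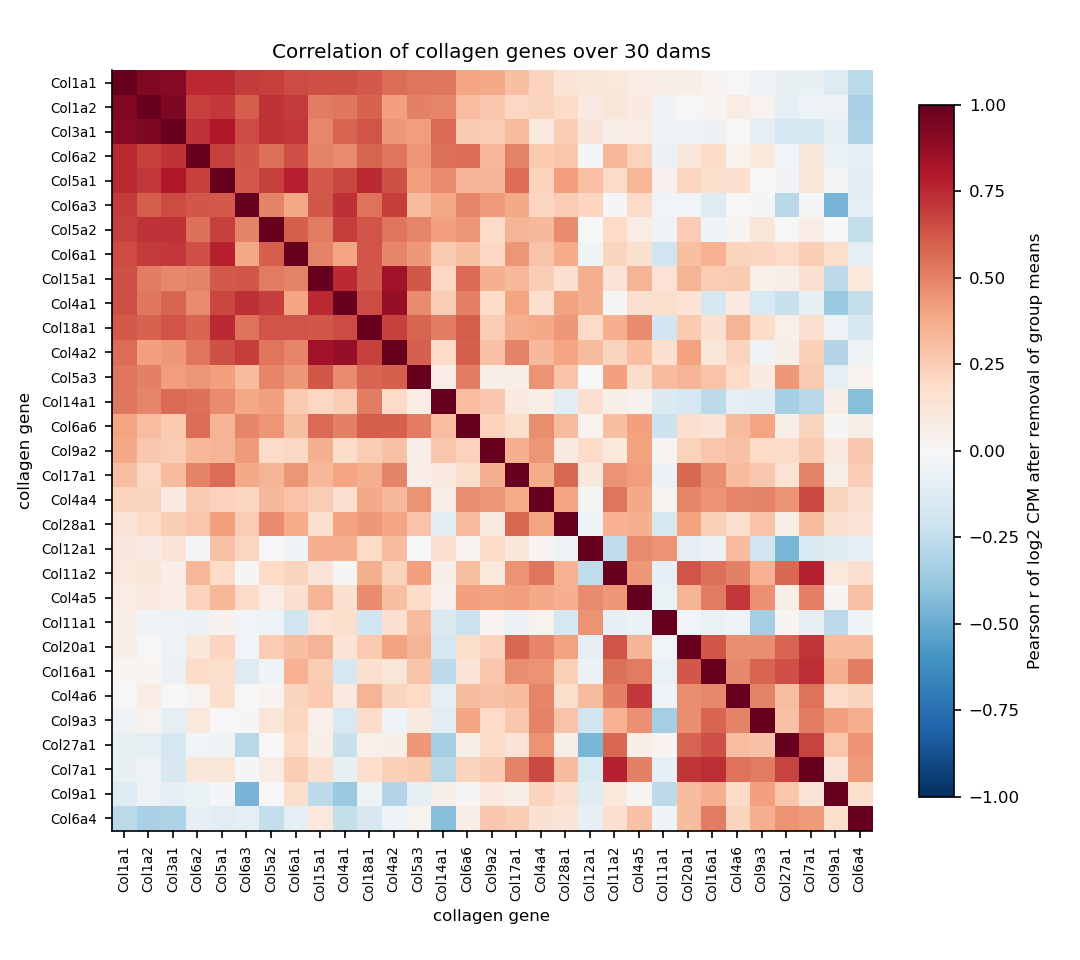
Pearson correlation between tested collagen genes over 30 dams, without dam FF3 and with group means removed, of log2 CPM. Col1a1, Col1a2 and Col3a1 form a block with correlations of 0.91 or more with Col1a1, and Col7a1, Col11a2, Col16a1, Col20a1 and Col27a1 form a second block with pairwise values of 0.55 to 0.77.

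Without dam FF3, 13 of the other 30 tested collagen genes (43.3%) had a correlation above 0.5 with Col1a1, with a median of 0.34. Among all other genes tested it was 259 of 14331 (1.81%), with a median of -0.016. Both are descriptions over the same 30 libraries. Col9a1 had -0.126, Col7a1 had -0.077 and Col17a1 had 0.30 with Col1a1.

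A second set, picked from the correlations after they were seen and so described without a test, joined Col7a1 to Col11a2 (0.77), Col16a1 (0.74), Col20a1 (0.72) and Col27a1 (0.68). Their 10 pairs ran from 0.55 to 0.77 with a median of 0.64, while their correlations with Col1a1 were 0.11, 0.022, 0.061 and -0.072 in the order named. In this set Col16a1 and Col20a1 are fibril-associated, Col11a2 and Col27a1 are fibrillar, and Col7a1 is the anchoring fibril. Of 30 pairs of 5 collagen genes with 6 markers, Col7a1 with Epcam of epithelium had r = -0.64 (adjusted p = 0.00165) and rho = -0.71 (adjusted p = 0.0015) over 31 libraries, r = -0.69 without the 2 farthest libraries and r = -0.61 without dam FF3 (adjusted p = 0.0021). The 2 farthest libraries for Col7a1 were dams 5 and 2 of FA diet + saline. With Elf5, a regulator of the secretory cell, Col7a1 had r = -0.55 (adjusted p = 0.00714) and rho = -0.59 (adjusted p = 0.00894) over 31 libraries, r = -0.51 without the 2 farthest libraries and r = -0.61 without dam FF3 (adjusted p = 0.00828). Such negative values were not particular to Col7a1. Without dam FF3, Col11a2 had r = -0.62 with Epcam (adjusted permutation p = 0.0058) and -0.59 with Elf5 (adjusted permutation p = 0.00853). Over 31 libraries the same pairs had -0.42 and -0.20. Col4a1 with Csn2 had r = -0.77 over 31 libraries and -0.45 without dam FF3. Col9a1 with Csn2 lay above 0, at 0.36 over 31 libraries and 0.39 without dam FF3. Col4a1 with Pecam1 had r = 0.64 (adjusted p = 0.00714) and rho = 0.59 (adjusted p = 0.00592) over 31 libraries, r = 0.61 without the 2 farthest libraries and r = 0.56 without dam FF3 (adjusted p = 0.00853). Col4a1 with Pdgfra had r = 0.85 (adjusted p = 0.0003) and rho = 0.67 (adjusted p = 0.0015) over 31 libraries, r = 0.66 without the 2 farthest libraries and r = 0.69 without dam FF3 (adjusted p = 0.0009). Whether these differ from the values of Col1a1 was not tested.

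Genes that make and bind collagen were given by counts on lists set up beside the collagen genes. Of 18 tested genes that modify or fold procollagen, 7 had a fluoxetine fold change above 0 with all dams (median -0.062) and 3 without dam FF3 (median -0.11). Of these Ppib, a prolyl isomerase of the secretory pathway, had -0.38 (SE 0.14, adjusted p = 0.393) for fluoxetine, and Serpinh1 had 0.48 (SE 0.16, adjusted p = 0.933) for FA, neither past an FDR of 10%. Both values are with all dams, as are those of the other single genes named from these and the marker lists. Without dam FF3 the largest FA change on this list was 0.31. The list summed to 298.5 CPM in dam FF3 against 472.5 to 1018 CPM elsewhere. The sum was led by P4hb, a subunit of prolyl hydroxylase that also folds other secreted proteins, at 0.20 times the median of the others. In that dam 11 of the 18 tested genes were above the median of the others, with Fkbp10 at 5.01, P3h1 at 3.44, Serpinh1 at 3.32 and Plod1 at 3.24 times. Procollagen processing and crosslinking genes summed to 102.6 CPM in dam FF3 against 9.83 to 32.9 CPM, and 6 of 9 tested were above 0 for fluoxetine with all dams and 3 of 9 without it.

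Matrix proteins that bind collagen were set beside the fibrils. All 14 tested were below 0 for fluoxetine without dam FF3 (median -0.31, 6 with an unadjusted p of 0.05 or below against 3.99% of all genes), as were 7355 of 14247 genes, and 7 of 14 were below 0 with it (median 0.061). The list summed to 824.8 CPM in dam FF3 against 148.6 to 427.5 CPM elsewhere, so this shift too follows from the levels of that dam. Fmod, a proteoglycan of collagen fibrils, had -0.43 (SE 0.14, adjusted p = 0.36) with all dams. Of 15 basement membrane partners 9 were above 0 with all dams and 4 without dam FF3. An unadjusted p of 0.05 or below was reached by 2 with all dams and 4 without dam FF3, all lower with fluoxetine. The backgrounds of lower genes were 2.98% and 3.99%, and the smallest FDR of the list was 0.299 and 0.152. Nid2, which links laminin to type IV collagen, had -0.50 (SE 0.14, adjusted p = 0.299) with all dams. No gene of these lists passed an FDR of 10% in either set of dams.

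Collagen-degrading genes and their inhibitors (13 tested) had 10 above 0 for fluoxetine with all dams (median 0.40) and 7 without dam FF3 (median 0.016). Of 6 tested collagen receptors 3 and 2 were above 0. Ddr2, a receptor of fibrillar collagen, had an interaction of 2.21 (SE 0.77, adjusted p = 0.977) with all dams and stood at 56.5 CPM in dam FF3, 19.1 times the median of the others. Without dam FF3 the interactions of the tested receptors ran from -0.17 to 0.54.

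Cell type markers gave the following counts above 0 for fluoxetine, with all dams and then without dam FF3. Fibroblast markers had 7 of 7 (median 0.088) and 0 of 7 (median -0.40, 3 with an unadjusted p of 0.05 or below against 3.99% of all genes). Endothelial markers had 6 of 7 in both (median 0.14 and 0.13), pericyte markers 5 and 3 of 6, and adipocyte markers 4 and 2 of 6. The medians of the fibroblast markers and of the fibrillar collagens fell below 0 when dam FF3 was left out, and that of the endothelial markers did not. These shifts follow from the levels of that dam, a fluoxetine dam, and are no test of a link between the lists. Immune markers had 2 and 0 of 4 tested, secretory epithelial markers 1 and 1 of 8, myoepithelial markers 2 and 0 of 8 (median -0.22 and -0.21), and skeletal muscle markers 3 and 3 of 7. In either set of dams 3 myoepithelial markers were lower with an unadjusted p of 0.05 or below, against 2.98% and 3.99% of all genes. With all dams, the myoepithelial gene Acta2 had -0.38 (SE 0.13, adjusted p = 0.36) for fluoxetine and 0.35 (SE 0.13, adjusted p = 0.933) for FA, and Cnn1 had 0.35 (SE 0.12, adjusted p = 0.933) for FA. For FA, fibroblast markers had 7 of 7 above 0 (median 0.52) and 6 of 7 without dam FF3 (median 0.095). The part of fibroblast content in the collagen values was not tested.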

How the data were processed

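RNA of 31 mammary glands was sequenced after poly-A capture as paired ends, 1 library per dam. Per the labels and the methods of the study, the authors checked reads with FastQC 0.11.7, trimmed them with Trim Galore 0.4.4, mapped them with Hisat2 to GRCm39, assigned them to genes with htseq-count (intersection-nonempty) and deposited raw counts; the annotation release and strand setting are not given in the sources used here. Gene symbols came from GENCODE mouse release 39, in which 667 gene identifiers had no entry. Libraries of a group differed beyond counting error in all 105 pairs (lowest chi-square per degree of freedom 15.8). Counts were scaled by TMM, filtered by group with filterByExpr (14362 of 55379 genes kept; common dispersion 0.169) and tested with robust quasi-likelihood fits in edgeR 4.0.16 (R 4.3.3), over 4 group means, with Benjamini-Hochberg adjustment over all genes tested. Log2 CPM for correlations used a prior count of 2, and ratios an offset of 0.5 reads; permutation tests used 100000 resamples (Python 3.11.15, NumPy 2.4.6, SciPy 1.17.1). Scripts were tested on simulated data. Alternatives used DESeq2 1.42.0, other scalings and filters, the replicate number as a block, and each library left out.

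Named in full were the 5 fibrillar, 2 type IV and 5 minor genes with the most CPM per kb, and every collagen gene with an unadjusted p of 0.05 or below in a contrast over all 31 libraries; from the other lists, genes with p of 0.01 or below. The collagen genes and lists were chosen with earlier results of these data known, and the fits without dam FF3 and the further correlations were added after seeing the data. The p-values measure the spread between dams, and read counts limit the low genes.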

Additional observations from a re-analysis of the deposited data

Results flagged for a closer look

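In 92 sets of values (19 named collagen genes and 4 sums, in 4 groups each), the highest or lowest dam was set against the rest of its group by the gap to its nearest neighbour over the range of the group. Chance would flag about 1 in 20 such groups if values were independent with a normal spread. Neither holds with certainty here, since the values are CPM and the genes and sums come from the same dams. In all, 25 were flagged, each time for the highest dam.

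Of these, 17 were dam 3 of FA diet + fluoxetine. Its levels were 279.5 CPM for Col3a1 (next dam 50.9), 166.8 CPM for Col1a1 (next 21.2), 217.3 CPM for Col1a2 (next 27.6), 25.4 CPM for Col5a1 (next 5.51) and 16.2 CPM for Col5a3 (next 8.34). They were 124.5 CPM for Col4a1 (next 42.0) and 63.3 CPM for Col4a2 (next 31.2). For minor collagens they were 57.4 CPM for Col6a1 (next 13.2), 21.7 CPM for Col6a3 (next 8.26), 26.8 CPM for Col15a1 (next 9.81), 20.05 CPM for Col16a1 (next 4.35), 7.59 CPM for Col27a1 (next 3.97) and 16.6 CPM for Col14a1 (next 4.68). The sums were 753 CPM for fibrillar collagens (next 119.8), 219 CPM for type IV (next 75), 295 CPM for minor collagens (next 115.9) and 1268 CPM for all collagen (next 293.7). This dam also had high sums of fibroblast, adipocyte and immune markers and low milk protein genes, and their part in these values was not tested.

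The other 8 were spread over 4 dams. Dam 12 of breeder diet + saline had 35.4 CPM for Col4a2 (next 23.9) and 95.7 CPM for type IV (next 68.6). Dam 10 of the same group had 28.9 CPM for Col7a1 (next 16.0) and 5.50 CPM for Col16a1 (next 3.18). In breeder diet + fluoxetine, dam 9 had 7.26 CPM for Col27a1 (next 2.67). Dam 11 of FA diet + saline had 57.5 CPM for Col1a1 (next 36.2), 12.6 CPM for Col5a1 (next 6.79) and 473 CPM for all collagen (next 348).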

How the results depend on the processing

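No collagen gene reached an FDR of 10% in any of 231 alternatives, and of 2547 recomputed values 2424 were classed as the same. For fold changes, ratios and correlations this class required at least the same direction, and for counts a value within 1.5 times. A median could be classed as the same although its sign turned, as the fluoxetine median with the replicate number as a block did. Of 31 fits with 1 library left out, the median log2 fold change for fluoxetine was below 0 in 1, that without dam FF3, and the range was -0.31 to 0.13. For FA it ran from -0.00013 to 0.45. With all libraries, the collagen genes at an unadjusted 0.05 for fluoxetine numbered 8 with DESeq2 and 9 with no filter, and 3 (without dam 9 of breeder diet + fluoxetine) to 13 (without dam FF3) with 1 library left out. For FA they numbered 1 to 8 (lowest with dam FF3 or breeder diet + fluoxetine dam 6 left out, highest with FA diet + fluoxetine dam 1 left out), and for the interaction 3 with no filter and 0 to 2. The main fits took dams as unpaired. The 28 same-number pairs of dams had a median correlation of deviations of 0.079, from -0.22 to 0.429, and 12 were over 0.1. The 332 different-number pairs had a median of -0.007, from -0.408 to 0.432, and 74 were over 0.1, so some pairing by number is not excluded. With all libraries and the replicate number as a block, the collagen genes at an unadjusted 0.05 numbered 2 for fluoxetine, 1 for FA and 0 for the interaction. The fluoxetine median, with dam FF3 kept, also turned below 0 (-0.19), with Col1a2 at -0.46 and Col6a1 at -0.50. Without dam FF3, those for fluoxetine numbered 10 to 16. For FA they were 3 with no filter, 0 with a minimum of 1 CPM in 7 libraries and 1 to 2 with a further library left out. For the interaction they were 1 with DESeq2, size factors, upper quartile scaling, the 20 most abundant genes left out or 1 CPM, and 0 to 7 (without dam 6 of breeder diet + fluoxetine). With the block they were 4 for FA and 0 for the interaction, with Col5a3 at -0.15 for fluoxetine. The medians without dam FF3 also moved with the block. They were -0.39 for fluoxetine (9 above 0, 22 below), 0.22 for FA (21 above, 10 below) and 0.25 for the interaction (22 above, 9 below). The FA difference in the Col4a1 to Col1a1 ratio over 10 same-number pairs was -0.089.

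Other signs turned for fluoxetine as well. DESeq2 gave -0.47 for Col1a2, upper quartile scaling 0.00032 for Col14a1, and 1 CPM 0.0097 for Col14a1 and 0.012 for Col1a1. With 1 library left out the ranges were -0.60 to 0.085 for Col1a1, -0.51 to 0.13 for Col1a2, -0.53 to 0.036 for Col5a1, -0.37 to 0.18 for Col6a1, -0.36 to 0.058 for Col14a1 and -0.070 to 0.28 for Col15a1. Without dam FF3 they were -0.059 to 0.22 for Col5a3 and -0.16 to 0.0070 for Col15a1. The Col3a1 to Col1a1 ratio ran from -0.035 to 0.041 for fluoxetine and from -0.015 to 0.060 for FA. Without dam FF3 the correlation of Col1a1 was 0.057 with Acta1 and -0.18 with Csn2. The Col1a2 value of DESeq2 rests on the replaced count of dam FF3, as given above. For the other changes the cause was not tested.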
